A study of Rattus norvegicus with 4 samples.

Results

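S100 proteins are small proteins with EF-hand loops. Most of them pair into dimers, and in most the loops take up calcium and let the protein bind a partner. In stratified epithelium of skin and mouth they include the calprotectin pair, partners of annexins at the membrane, and a protein of the mesenchymal programme. Most of their genes lie in 1 chromosomal cluster with the genes of the cornified envelope, the cross-linked shell of surface cells. The 9 genes described here were S100a1, S100a4, S100a6, S100a8, S100a9, S100a10, S100a11, S100a16 and S100g, taken by gene symbol from 14218 genes with a probe set of their own on the array. Each of the 9 had 1 probe set, so no second probe set checks any of them.

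The cells were ROE2, an immortalized oral epithelial line made from fetal tongue (18 days) of a transgenic Wistar rat that carries the gene of a temperature-sensitive SV40 large T antigen (tsSV40), a viral protein that drives proliferation and is less active at higher temperature. They were grown on collagen type I in medium with the growth factor EGF at 10 ng/ml, insulin, transferrin, ethanolamine, selenite and serum at 2%, first at 33 °C for 24 h and then at 37 °C for 0 days (the control), 3, 6 or 9 days. There was 1 Affymetrix array per day, so the groups are day 0, day 3, day 6 and day 9 with 1 sample each, and no difference below has a replicate check or a p-value. All cells carry the T antigen and come from 1 line. Against day 0, time, temperature, culture age and array cannot be told apart. Days 3, 6 and 9 were all at 37 °C, and among them time, culture age and array cannot be told apart. Nor can fewer cells of a type be told apart from less RNA per cell in these bulk samples.

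Values are the authors' log2 values per probe set. A gene is called higher or lower below when 2 arrays differed by 1 or more on this scale, which is 2-fold, and genes enter the counts when they reached 6 on at least 1 array, as 8802 of the 14218 genes and 8 of the 9 S100 genes did. All 9 measured epithelial markers, among them Krt5, Krt14 and Cdh1, were above this floor, between 9.68 and 14.1 on day 0. The arrays differed in their controls. The hybridisation spike-ins, control transcripts of the array kit, read a median of 0.14, 0.39 and 0.63 higher on days 3, 6 and 9 than on day 0, while the median difference over all genes above the floor was -0.05, -0.18 and -0.14. As the only spread at hand, other probe sets of the same gene parted from the one used by a median of 0.17, 0.41 and 0.38 in the differences from day 0 on days 3, 6 and 9, over 2700 such pairs.

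On day 3, S100g was higher than on day 0 and both calprotectin genes were lower. On day 6 S100g was still higher, and S100a9 and S100a4 were lower. By day 9 S100a16 was higher and S100a4 lower, while the other members above the floor were within 2-fold of day 0. The 1 gene of 8 that was higher on day 3 stands beside 4.31% of all genes, and the 2 that were lower beside 2.15%. On day 6, 1 of 8 was higher against 5.74% of all genes and 2 were lower against 8.08%. On day 9, 1 was higher against 5.57% and 1 lower against 6.25%. Whether these counts exceed the background was not tested. The median of the 8 was -0.50, -0.48 and -0.04 on days 3, 6 and 9, and -0.40, -0.47 and -0.04 with S100a1 included, beside -0.05, -0.18 and -0.14 for all genes.

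The promoters of 5 members were among RefSeq's sequences, as windows from 250 bases before to 50 after the gene start on build GRCr8. The 4 shown are those of genes with different courses, S100a4 and S100a9 with 2-fold lower values, S100a16 with a 2-fold higher value and S100a11 nearly level. They lie at chr2:178388279-178388578 (S100a4, plus strand), chr2:178490573-178490872 (S100a9, minus strand), chr2:178313736-178314035 (S100a16, plus strand) and chr2:181874882-181875181 (S100a11, plus strand). They are written 5′ to 3′ on the gene's strand, and capitals mark the matches to 4 short motifs spelled out after the sequences.
S100a4: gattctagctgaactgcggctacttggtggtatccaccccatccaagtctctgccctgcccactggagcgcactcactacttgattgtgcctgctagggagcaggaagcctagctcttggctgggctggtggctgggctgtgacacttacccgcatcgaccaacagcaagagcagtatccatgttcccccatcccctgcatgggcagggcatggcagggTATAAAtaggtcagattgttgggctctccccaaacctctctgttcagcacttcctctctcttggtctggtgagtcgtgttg
S100a9: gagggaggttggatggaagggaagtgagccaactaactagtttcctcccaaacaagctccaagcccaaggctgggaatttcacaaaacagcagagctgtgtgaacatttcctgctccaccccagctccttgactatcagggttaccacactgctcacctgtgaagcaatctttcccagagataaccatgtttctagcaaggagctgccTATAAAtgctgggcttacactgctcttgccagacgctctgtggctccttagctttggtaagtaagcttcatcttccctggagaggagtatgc
S100a16: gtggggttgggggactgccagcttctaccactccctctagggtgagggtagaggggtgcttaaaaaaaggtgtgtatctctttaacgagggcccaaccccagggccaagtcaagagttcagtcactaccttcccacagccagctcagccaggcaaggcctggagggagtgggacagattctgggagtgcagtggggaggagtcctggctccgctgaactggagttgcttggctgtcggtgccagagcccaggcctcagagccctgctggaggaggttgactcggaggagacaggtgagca
S100a11: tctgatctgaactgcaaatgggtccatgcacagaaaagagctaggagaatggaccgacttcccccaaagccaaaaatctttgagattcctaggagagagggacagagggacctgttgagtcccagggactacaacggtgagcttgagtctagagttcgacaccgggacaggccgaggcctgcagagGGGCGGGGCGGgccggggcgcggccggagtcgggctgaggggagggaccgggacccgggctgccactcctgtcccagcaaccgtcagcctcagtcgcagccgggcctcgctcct

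The first motif searched, on both strands, was the TATA box with the letters TATAAA. The second was the GC box, spelled GGGCGG. The others were the AP-1 motif TGANTCA and the C/EBP motif TTGCNNAA. The S100a4 and S100a9 windows each held 1 TATA box on the gene's strand, beginning 31 and 42 bases before the start, and no GC box. The S100a11 window held 2 GC boxes that share 1 base and the S100a6 window 1, and neither held a TATA box. The S100a16 window held none of the 4 motifs, and no window of the 5 held an AP-1 or C/EBP motif. Over 27457 promoters of this length 14.3% held a TATA box, 34.9% a GC box, 7.33% the AP-1 and 10.5% the C/EBP motif. On the gene's strand, 2.31% held a TATA box beginning 11 to 50 bases before the start. A match describes these letters, and binding was not measured.

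**Figure D1:**
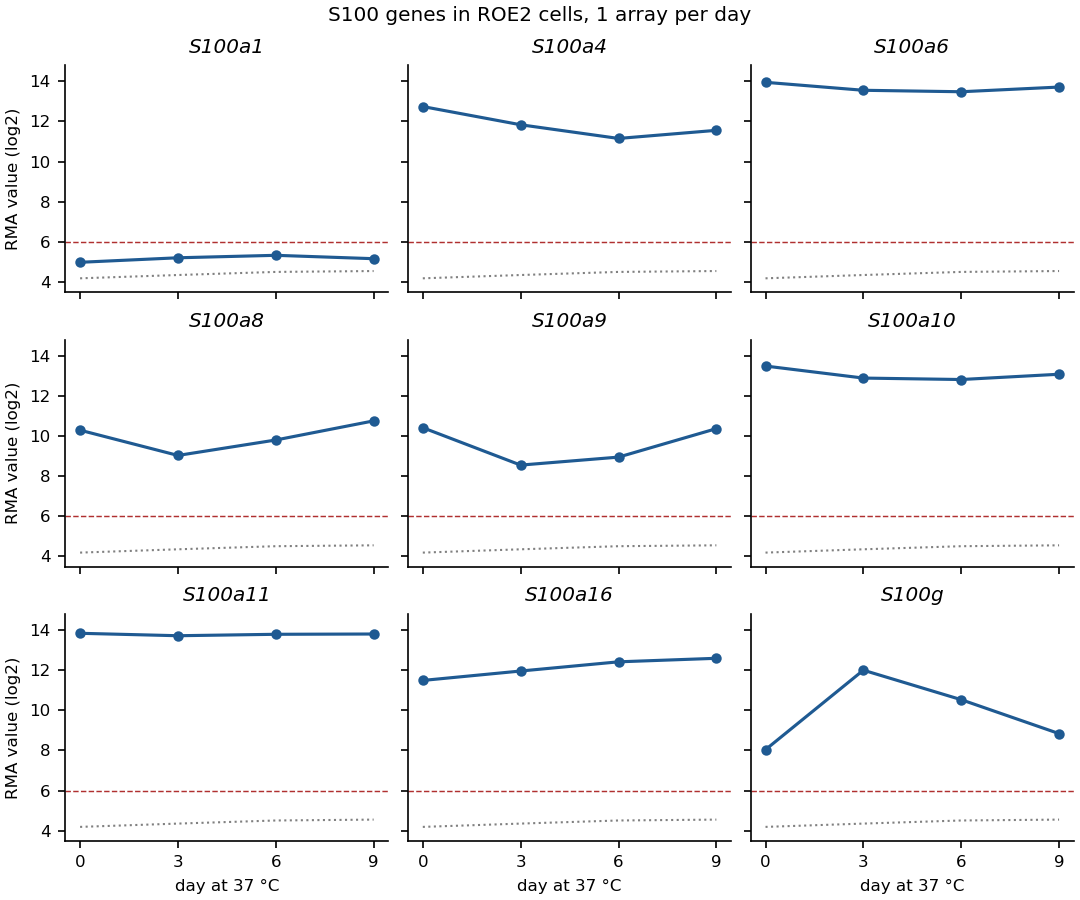
RMA values (log2) of the 9 S100 genes on days 0, 3, 6 and 9 at 37 °C, 1 point per array. The dashed line is the floor of 6 and the dotted line the brightest bacterial control of each array. S100g peaks at 11.99 on day 3, S100a8 and S100a9 are lowest on day 3, and S100a1 stays below the floor.

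S100g encodes calbindin-D9k, which buffers and carries calcium in intestine, kidney and uterus and is a target of vitamin D in intestine. It read 8.04 on day 0, 11.99 on day 3, 10.53 on day 6 and 8.84 on day 9. Only the day 3 and day 6 arrays were far above day 0, and the gene was past its highest point by day 6. It was 15.5-fold higher on day 3 than on day 0, the second of 8802 genes by difference, 5.61-fold higher on day 6 and 1.74-fold on day 9. It was also lower on day 6 than on day 3, by -1.47, beside 1.60% of all genes that were 2-fold lower in that step, and lower on day 9 than on day 6, by -1.69, beside 0.591%. No member was 2-fold higher on day 6 than on day 3, beside 0.829% of all genes. Its day 9 difference of 0.80 was 0.17 with the arrays centred on the spike-ins and 1.01 with them centred on the median of the housekeeping list.

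S100a8 and S100a9 encode the 2 subunits of calprotectin, an antimicrobial metal-binding complex that is abundant in neutrophils and is also made by keratinocytes. S100a8 read 10.29, 9.03, 9.80 and 10.75 on days 0, 3, 6 and 9. S100a9 read 10.41, 8.55, 8.95 and 10.36. Both were lowest on day 3, and on day 9 S100a8 was above its day 0 value and S100a9 beside it.

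On day 3 S100a8 was 2.39-fold and S100a9 3.64-fold lower than on day 0, and S100a9 had the 27th lowest difference of the 8802 genes. On day 6 S100a9 was still lower, by -1.46, and S100a8 differed by -0.49. Centred on the mean of the housekeeping list, 2 of these differences fell short of 2-fold, S100a8 on day 3 at -0.95 and S100a9 on day 6 at -0.98. On day 9 the differences from day 0 were 0.46 for S100a8 and -0.05 for S100a9. Between days 6 and 9 S100a9 was 2.67-fold higher and S100a8 1.93-fold, in a step where 0.250% of all genes were 2-fold higher. From day 3 to day 9 S100a8 was 3.30-fold and S100a9 3.52-fold higher. Against day 0, the day 9 value of S100a8 turned to -0.17 when the spike-ins set the scale.

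Both genes are abundant in leukocytes, whose markers were checked. Of 15 leukocyte markers listed 11 were measured and 3 were above the floor, namely Cd14, Cd68 and Laptm5. Ptprc, the pan-leukocyte marker CD45, read between 2.79 and 2.93 and Itgam between 3.09 and 3.24 on the 4 arrays, below the brightest bacterial control of each. The summed linear level of the 11 markers was 1839.7, 1079, 862 and 711 on days 0, 3, 6 and 9, and Cd14, a lipopolysaccharide receptor gene that read 10.66, 9.68, 9.18 and 8.80, made up most of it. Without Cd14 the other 10 summed to 222, 260, 281 and 265, lowest on day 0. Cd68, a lysosomal protein gene of macrophages, read 5.32, 6.54, 6.27 and 6.18, which is 1.22, 0.95 and 0.86 above day 0 on days 3, 6 and 9. Laptm5 differed from day 0 by -0.15, 0.37 and 0.15. Above the brightest bacterial control were 5, 4, 5 and 4 of the 11. What part such cells had in the calprotectin values was not tested.

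S100a4, also called fibroblast-specific protein, is a myosin-binding S100 protein linked to motility and to the mesenchymal state. It read 12.74 on day 0, 11.84 on day 3, 11.16 on day 6 and 11.56 on day 9. All 3 later arrays were below day 0, and the lowest was day 6. It was 1.88-fold lower on day 3, 3.01-fold on day 6 and 2.27-fold on day 9. On day 9 its difference of -1.18 was -0.97 with the arrays centred on the median of the housekeeping list, under the 2-fold rule. On day 3 its difference of -0.91 passed 2-fold, at -1.05, when the spike-ins set the scale. Of 10 fibroblast markers, all measured, 0 reached the floor on any array, and their summed linear level was 120.3, 116.4, 125.4 and 122.2 on days 0, 3, 6 and 9. Col1a1 read between 3.72 and 3.94, below the brightest bacterial control on every array. Myh9, the nonmuscle myosin heavy chain that S100a4 binds, was at -0.54, -0.57 and -0.85 on days 3, 6 and 9 against day 0.

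S100a16 is a widely expressed member with a degenerate first calcium loop. It read 11.48, 11.95, 12.41 and 12.59 on days 0, 3, 6 and 9, higher on each later array than on the one before. Against day 0 it was 1.38-fold, 1.90-fold and 2.15-fold higher on days 3, 6 and 9. The day 9 difference of 1.10 was 0.47 with the arrays centred on the spike-ins, and the day 6 difference of 0.93 was 1.09 with them centred on the median gene.

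S100a6, S100a10 and S100a11 differed little. S100a6, or calcyclin, a protein of proliferating cells, read 13.95, 13.55, 13.48 and 13.71 on days 0, 3, 6 and 9. S100a10, or p11, which joins annexin A2 into a tetramer that binds plasminogen at the cell surface, read 13.48, 12.88, 12.81 and 13.07. S100a11, an annexin A1 partner that is cross-linked into the envelope of keratinocytes, read 13.83, 13.71, 13.78 and 13.79.

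All 3 were lowest on day 3 or 6, and the largest difference from day 0 among them was that of S100a10 on day 6, at -0.67. With the arrays centred on the spike-ins S100a10 was at -1.06 on day 6 and -1.04 on day 9, past 2-fold. S100a6 and S100a11 lay within 0.74 and 0.44 of the brightest value of each array. Whether this limited their differences was not tested. RefSeq lists 7 further genes or pseudogenes named after S100a11 and 1 after S100a10, and whether their transcripts reach these probe sets was not tested.

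S100a1, a regulator of calcium handling in heart and skeletal muscle, read 4.99, 5.22, 5.34 and 5.17 on days 0, 3, 6 and 9. It was above the brightest bacterial control on each array, which read 4.19 to 4.56, but below the floor throughout. Of 9 measured muscle markers 1, Myh11, reached the floor, and Myog, Acta1 and Ckm did not. Of 6 measured markers of Schwann cells and melanocytes 0 reached it.

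**Figure D2:**
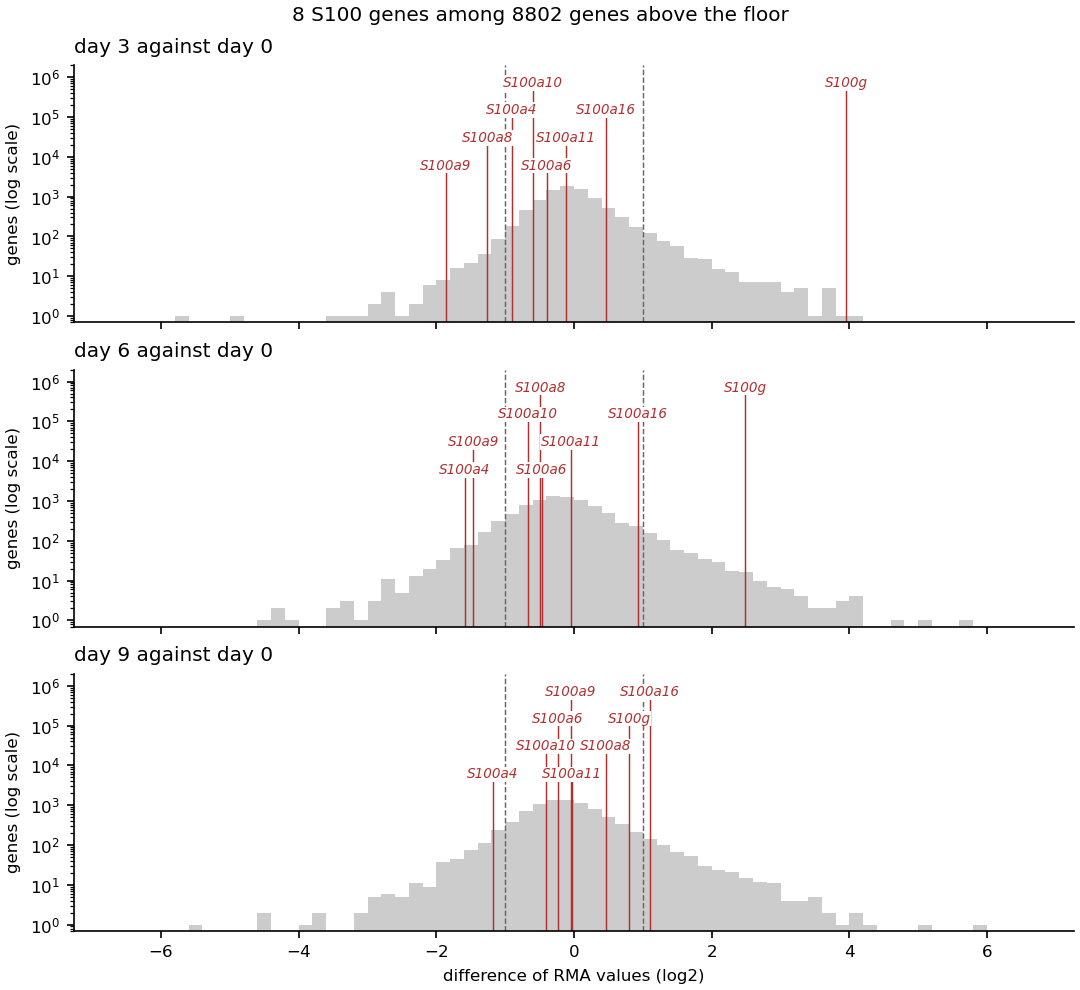
Differences of RMA values (log2) from day 0 for 8802 genes above the floor (grey histogram, number of genes on a log scale, bins of 0.2) with the 8 S100 genes above the floor as red lines, for days 3, 6 and 9. The dashed lines mark 2-fold. S100g stands at 3.96 on day 3 and 0.80 on day 9, and S100a9 at -1.86 and -0.05.

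Of the members 8 lie on chromosome 2 in RefSeq's GRCr8 annotation and 1, S100g, on chromosome X. From S100a1 to S100a10 that annotation lists 101 genes, of which 28 were measured and 20 were above the floor. Along this stretch 4, 5 and 7 of the 20 were higher than on day 0 on days 3, 6 and 9, and 2, 2 and 1 lower. Over all genes 4.31%, 5.74% and 5.57% were higher and 2.15%, 8.08% and 6.25% lower on these days. Whether the stretch exceeds these shares was not tested. The lower genes of the stretch were S100a8 and S100a9 on day 3, S100a4 and S100a9 on day 6 and S100a4 on day 9. The higher ones on day 9 were S100a16 and 6 genes between S100a9 and S100a11, namely Loricrin and Sprr3, which encode envelope proteins, Sprr2d, Kprp, Kplce and Tchh, the gene of the hair follicle and tongue protein trichohyalin.

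Of the envelope and fused-type S100 genes listed, 6 were above the floor. Of these 2, 3 and 4 were higher on days 3, 6 and 9 and 0 lower, with a median of 0.62, 1.01 and 1.31. Beside them stand 4.31%, 5.74% and 5.57% of all genes higher and 2.15%, 8.08% and 6.25% lower, and an excess over these shares was not tested.

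Among the other S100 genes of the stretch, S100a14, next to S100a16, read 12.28, 12.60, 12.79 and 12.77 on days 0, 3, 6 and 9, within 0.51 of day 0, and its second probe set within 0.58. S100a3, which lies before S100a4 but not directly beside it, read 6.89, 6.30, 6.38 and 6.55. S100a6, which follows S100a4 and S100a5, was described above. S100a13 was below the floor at 5.83, 5.56, 4.48 and 4.89. S100a5 read 4.43 on day 0 and at most 3.92 later, below the brightest bacterial control of those arrays. S100a7l2, S100vp and S100b, the glial member, were not above it on any array. S100pbp, which encodes a binding partner of an S100 protein and is not an S100 gene, read 7.95, 8.19, 7.92 and 8.05, and its second probe set 6.70, 6.88, 7.48 and 7.35, up to 0.79 above day 0 on day 6.

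**Figure D3:**
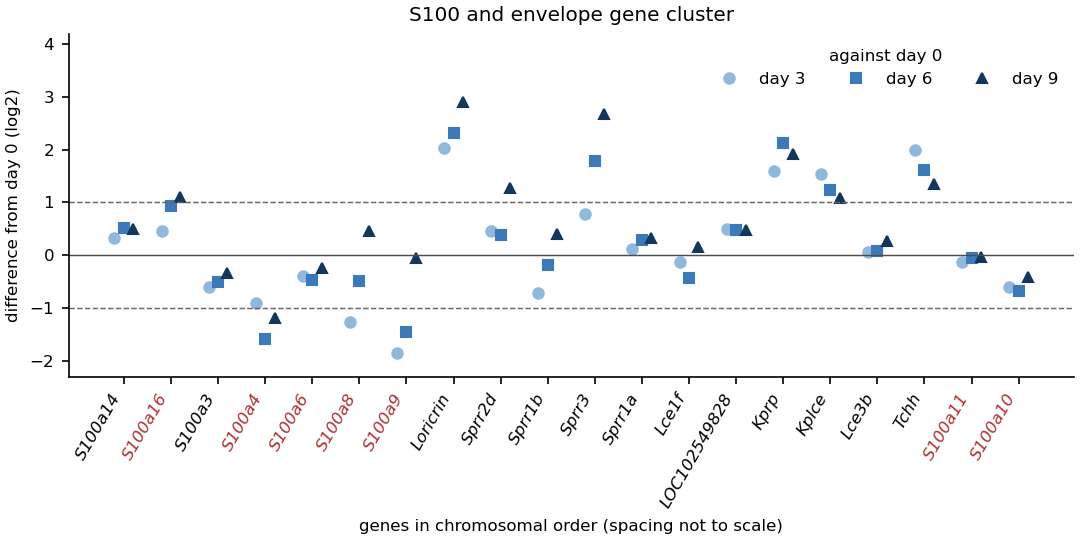
Difference from day 0 (log2) on days 3, 6 and 9 for the 20 genes above the floor between S100a1 and S100a10, in chromosomal order and not to scale. Members are in red and the dashed lines mark 2-fold. Loricrin reaches 2.91 and Sprr3 2.68 on day 9, while S100a4 is at -1.18.

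Partners and receptors of S100 proteins were mostly within 2-fold. Of 13 above the floor 1, Plat, was higher on days 3, 6 and 9, and 1, Anxa5, was lower on days 6 and 9. Over all genes 4.31%, 5.74% and 5.57% were higher and 2.15%, 8.08% and 6.25% lower on these days. The list median was -0.10, -0.24 and -0.41. Anxa2, the partner of S100a10, read 13.69, 13.64, 13.45 and 13.42 on days 0, 3, 6 and 9. Plat, which encodes the tissue plasminogen activator, read 7.70, 9.31, 9.45 and 9.73, 4.10-fold higher on day 9 than on day 0. Anxa5, an annexin that binds phosphatidylserine, was at -1.01 on days 6 and 9. Cacybp, the gene of the calcyclin-binding protein that S100a6 binds, was at -0.41 on day 9. Of the receptors of calprotectin, Tlr4 read 8.41, 9.00, 9.23 and 9.31, 0.90 higher on day 9, and Ager, the gene of RAGE, stayed between 4.79 and 5.05, below the floor.

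Of the listed epithelial defence genes and regulators of the calprotectin genes, 10 were above the floor. Of these 4, 5 and 4 were higher on days 3, 6 and 9 and 0 lower, with a median of 0.74, 0.85 and 0.61. Beside them stand 4.31%, 5.74% and 5.57% of all genes higher and 2.15%, 8.08% and 6.25% lower. Whether the list exceeds these shares was not tested. Cebpb, which encodes a C/EBP factor, read 10.03, 11.49, 11.87 and 11.65. Cebpa, the gene of a related factor, was 1.53 higher on day 3, 2.71 on day 6 and 2.99 on day 9. The protease inhibitor gene Slpi was 3.34, 3.22 and 3.71 higher, the beta-defensin gene Defb4 1.60, 1.65 and 2.29, and Il1rn, the gene of the interleukin-1 receptor antagonist, 0.99, 1.18 and 0.44. These 5 are named for being 2-fold apart. Of the same list, Stat3, Il17ra and Nos2 were below day 0 on day 3, at -0.20, -0.42 and -0.15. On days 6 and 9 Stat3 was at 0.51 and 0.78, Il17ra at -0.42 and -0.30, and Nos2 at 0.0005 and -0.09. Cebpd, the gene of a further C/EBP factor, was at 0.49, 0.0005 and -0.30 on days 3, 6 and 9. Il1a, the gene of interleukin-1 alpha, was at 0.13, -0.07 and -0.14.

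Of 17 other EF-hand genes above the floor, 2, 4 and 3 were higher and 0, 1 and 2 lower on days 3, 6 and 9. Their median was 0.10, -0.04 and -0.19. The shares over all genes were 4.31%, 5.74% and 5.57% higher and 2.15%, 8.08% and 6.25% lower, and no excess was tested. Calml3, a calmodulin-like gene of epithelium, read 6.34, 9.56, 10.23 and 9.25. Calml5, a calmodulin-like gene of differentiating keratinocytes, was 1.77 higher on day 9, and the nucleobindin gene Nucb2 1.25. Efhd1, the gene of a mitochondrial EF-hand protein, read 5.85, 8.50, 7.70 and 6.35, with its highest value on day 3 as for S100g. The calpain genes Capn2 and Capns1 were lower on day 9, by -2.26 and -1.13.

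Of 9 measured genes of vitamin D action and epithelial calcium transport 2 were above the floor, and none of these was 2-fold higher or lower on any day. They were the calcium pump gene Atp2b1, at -0.32, -0.68 and -0.37 on days 3, 6 and 9, and the exchanger gene Slc8a1, at 0.04, 0.14 and -0.02. Vdr, the vitamin D receptor gene, read 3.44, 3.83, 4.34 and 4.82, below the floor throughout. It was above the brightest bacterial control on day 9 only. Its bound against the day 0 control of 4.19 was 1.54-fold on the reported scale. The brightest control read 4.56 on day 9, and the spike-ins were then a median of 0.63 above day 0. The calcium channel gene Trpv6 stayed between 4.99 and 5.40. S100g was highest on day 3, when Vdr was not above the controls, and any link between them was not tested.

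**Figure D4:**
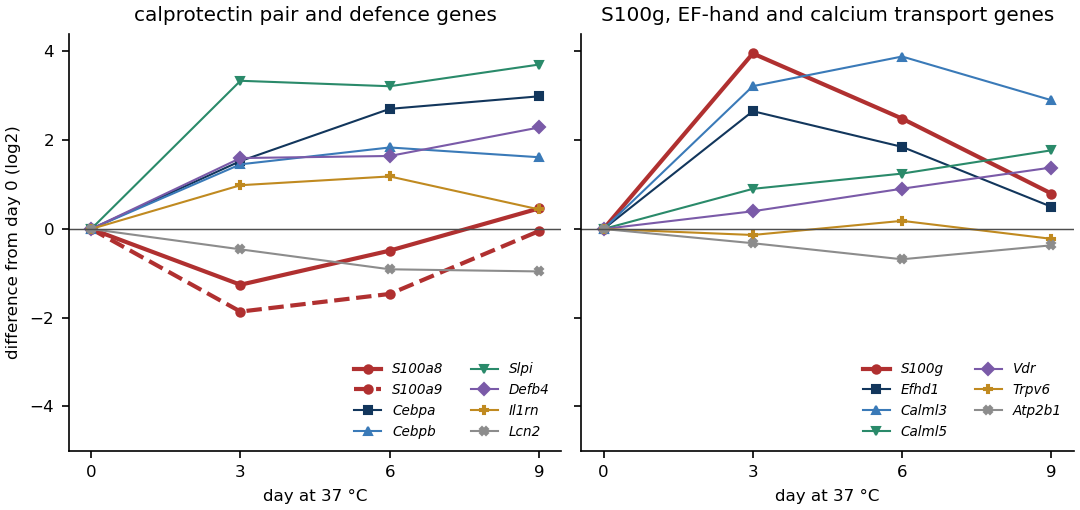
Difference from day 0 (log2) on days 0, 3, 6 and 9 for S100a8 and S100a9 with regulators and defence genes (left) and for S100g with EF-hand, vitamin D and calcium transport genes (right), 1 array per day. S100a8 and S100a9 are below 0 on day 3 while Cebpb is at 1.46. Efhd1 peaks on day 3 as S100g does. Lcn2, Vdr and Trpv6 lie below the floor on all arrays.

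Profiles were compared over the 4 arrays by the root mean square difference of values centred on each gene's mean, among 1716 genes whose range was 2-fold or more. For S100a4 the nearest were Pop1, Gusb and Krt8, at 0.01, 0.02 and 0.03. For S100a16 they were Baz2b, Rubcn and Ube2r2, at 0.04 each. The nearest to S100a8 and S100a9 were further off, with Slc4a2, Slc1a1 and Irx5 at 0.17, 0.22 and 0.23 from S100a8 and Atxn7l1, Igfbp3 and Dock8 at 0.11, 0.23 and 0.29 from S100a9. S100g had the most distant neighbours of the 5 genes compared, Mcpt8 at 0.34, Fut1 at 0.46 and Slc7a11 at 0.48, and Mcpt8 was not above the bacterial controls on days 0 and 9. These likenesses are descriptions over 4 arrays.

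**Figure D5:**
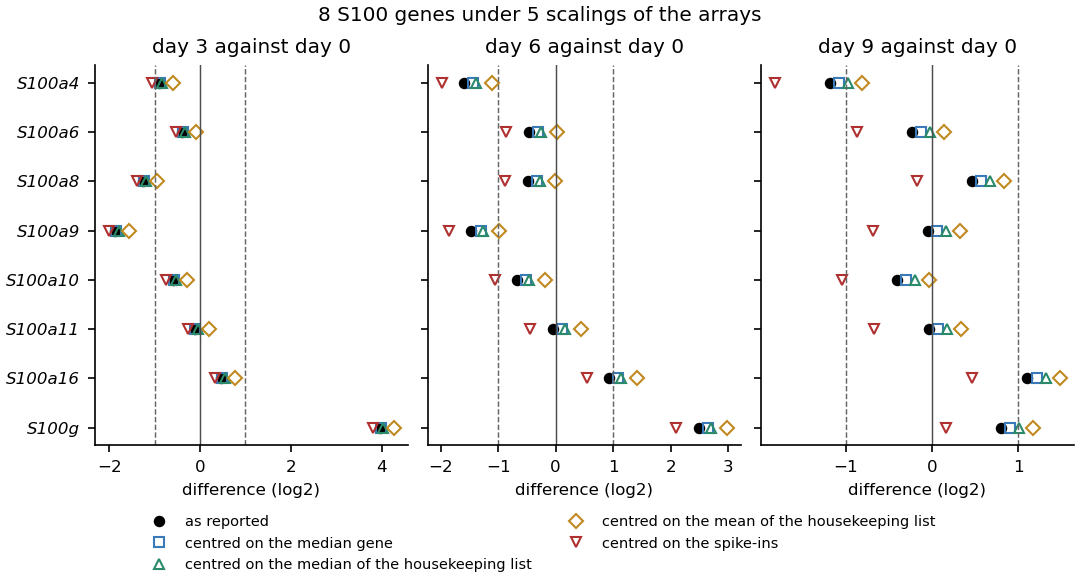
Difference from day 0 (log2) of the 8 S100 genes above the floor on days 3, 6 and 9, as reported and with the arrays centred on the median gene, the median or mean of 11 housekeeping genes, or the spike-ins. The dashed lines mark 2-fold. S100g stays above 2-fold on days 3 and 6 and S100a9 below it on day 3 under all 5 scalings, while S100a16 on day 9 moves between 0.47 and 1.48.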

How the data were processed

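Total RNA of ROE2 cells was measured with 1 Affymetrix 3' array of the rat genome per day, and each array's group is its labelled time point. The authors deposited RMA values on a log2 scale, 1 per probe set, and RMA is named in the submitters' processing notes. RMA removes background and gives the probe intensities of all arrays 1 distribution before summarizing them per probe set. A shift shared by most genes is therefore largely lost. Nothing in the files gives the log base, which was taken from their span of 1.55 to 14.2. The software is not given in the sources used here. Of 31099 probe sets 20832 had 1 gene symbol in the platform annotation, 436 several and 9831 none. A gene took its probe set with the highest mean. Signal over background was judged from 27 bacterial control probe sets. Where a gene was not above the brightest of them on day 0, a fold is a bound against it.

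The brightest bacterial control read 4.19 to 4.56, and the number of arrays limits all precision. Counts used a difference of 1 or more and a floor of 6, and no test was run. The size rule and the profile comparison were tested on simulated data. The members and lists were chosen with earlier results of these data known, and the motifs after seeing the values. Named genes were all S100 genes, up to 6 members of each list that were 2-fold apart, a fixed set of partners, and the 3 nearest profiles of each member with a 2-fold range. Slc8a1, Atp2b1, Stat3, Il17ra, Nos2, Cebpd, Il1a, the markers and the neighbours along the chromosome were named outside this rule. Promoters are from RefSeq (GRCr8) and were looked up by gene symbol. Probe sets took the RefSeq symbol of their Entrez gene identifier, found for 20764, and otherwise kept their annotated symbol. Alternatives were the floor (none, 5 or 8), the size rule (1.5-fold or 3-fold), the choice of probe set, a further quantile normalization, values below the floor set to it, and centring on the median gene, the spike-ins (18 probe sets) or the median of the housekeeping list. Centring on the mean of that list was chosen after seeing the data. Python 3.11.15, numpy 2.4.6, pandas 2.3.3 and matplotlib 3.10.9 were used.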

Additional observations from a re-analysis of the deposited data

How the results depend on the processing

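No paired analysis was possible because each day has 1 array, and for the same reason no replicate could be left out. No S100 gene that was 2-fold higher or lower turned its direction under any of the alternatives tried. Counts of S100 genes depended on the size rule. At 1.5-fold, against day 0, 4 were lower on day 3 (10.0% of all genes), 2 higher and 3 lower on day 6 (12.1% and 22.9%) and 2 higher on day 9 (12.0%). In the later steps 1 was higher and 2 lower on day 6 against day 3 (3.49% and 9.15%), and 2 higher on day 9 against day 6 (2.66%). At 3-fold, 1 was lower on day 3 (0.534% of all genes), 1 lower on day 6 (1.87%), and 0 higher and 0 lower on day 9 (2.1% and 1.48%). In the later steps 0 were lower on day 6 against day 3 (0.239%) and 0 higher on day 9 against day 6 (0.0227%). Centring moved counts near 2-fold. On the median gene, 2 were higher on day 6 (7.78% of all genes). On the median of the housekeeping list 2 were higher on day 6 (8.57%), and on day 9 2 were higher and 0 lower (8.13% and 3.38%). On the mean of that list 1 was lower on day 3 (0.891%), and 2 were higher and 1 lower on day 6 (13.9% and 2.14%). On day 9 2 were higher and 0 lower on that mean (11% and 2.28%). The medians on that mean were -0.19 and 0.0061 on days 3 and 6. That mean includes Tfrc, which was 2-fold lower on days 3, 6 and 9 (-1.43 on day 3). It also includes Gusb, which was 2-fold lower on days 6 and 9 and at -0.89 on day 3. On the spike-ins 3 were lower on day 3 (3.48% of all genes) and 3 on day 6 (21.9%). On day 9 0 were higher (1.91%) and 2 lower (33.6%), S100a4 and S100a10. The medians were then -0.64, -0.87 and -0.68 on days 3, 6 and 9. The day 9 median, -0.04 as reported, was above 0 on the median gene (0.07), the housekeeping median (0.17) and the housekeeping mean (0.33). Centring on the spike-ins put 94.6% of all genes called on day 9 on the lower side. The share was 52.9% as reported and 41.2% centred on the median gene. For days 3 and 6 the shares on the lower side were 52.1% and 88.6% on the spike-ins, against 33.3% and 58.5% as reported. Centred on the mean of the housekeeping list they were 10.0%, 13.3% and 17.2% on days 3, 6 and 9. The floor and the choice of probe set left the 8 genes' values as they were, since each has 1 probe set. Precision is limited by having 4 arrays in all, and S100a1 lay near the bacterial controls.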
